A study of Mus musculus with 3 samples.

Results

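Mitosis, spindle and kinetochore genes were examined in NIH3T3 cells, mouse embryo fibroblasts that grow without limit in culture, with 3 oligonucleotide arrays of 1 colour. The members are a given list of 35 genes that act in G2 and mitosis, and a probe set counted for a member when the platform annotation gave it that 1 gene symbol. By this rule 34 of the 35 members had 76 probe sets, among 18193 genes with a probe set on the array, and all 34 passed the filter on low signal that left 10843 genes for testing. Ccnb1, cyclin B1, had no such probe set and was not analysed here.

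The series compares cells expressing a short hairpin RNA (shRNA) with empty-vector cells in a screen for resistance to oxidative stress. Total RNA was labelled from 2 samples titled as empty controls (empty vector 1 and empty vector 2) and from 1 sample titled for RetSat, retinol saturase, and numbered 2 (RetSat shRNA). The empty-vector cells were grown in DMEM with calf serum, had no treatment and are described as showing basal expression. The RetSat shRNA cells are described as highly resistant to t-BHP (tert-butyl hydroperoxide), an organic peroxide that imposes oxidative stress, and the sources used here give neither their growth nor their treatment. Whether each line was 1 clone or a pool, how dense the cells were at harvest, and whether the empty controls were grown as separate cultures is not stated there either.

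Entry into mitosis is driven by cyclin A and cyclin B bound to CDK1, with the Polo and Aurora kinases acting beside them. The kinetochore holds chromosomes to spindle microtubules, the spindle checkpoint delays anaphase until all are attached, and the anaphase-promoting complex with CDC20 then marks securin and cyclin B for destruction. Most of these genes are transcribed in G2 and M phase under the MuvB complexes, B-MYB and FOXM1, so in growing fibroblasts their combined mRNA level is commonly read as a measure of cycling cells. In bulk RNA, fewer cells in mitosis and less of an mRNA per cell cannot be told apart.

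The promoters of the list carry the sequence elements known for this programme. RefSeq promoter windows (GRCm38.p6, 250 bases before to 50 bases after the start that the promoter table uses) were matched by symbol for 30 of the 35 members, and Aurkb, Foxm1, Ccna2, Tpx2 and Kif20a had no entry. In 17 of the 30 the outermost annotated end of the gene, which sets the span used further on, lies upstream of that start, and 2 members had more than 1 window. Both strands were searched for TTTGAA, the core of the CHR element bound by MuvB, for its variant TTTAAA, and for CCAAT, the element bound by NF-Y. TTTGAA was found in 22 of the 30 windows, against 17.9% of all 32851 windows of the same length in the table. CCAAT was found in 23 of 30, against 37.4% of all windows, and TTTAAA in 8 of 30, against 13.2%. No overlap between these motifs was removed, and a match is a description of the letters, not a shown binding site.

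The 150 bases that end just before the promoter table's start are shown 5′ to 3′ for 4 members, chosen after their values were seen because they hold the same elements while their signals on the empty-vector arrays behave differently. Mki67 and Top2a were far higher on empty vector 1, and Cdk1 and Cdc20 were not. Capitals mark TTTGAA and CCAAT and, where the element lies on the opposite strand, TTCAAA and ATTGG.
Mki67, chr7:135716380-135716529, minus strand: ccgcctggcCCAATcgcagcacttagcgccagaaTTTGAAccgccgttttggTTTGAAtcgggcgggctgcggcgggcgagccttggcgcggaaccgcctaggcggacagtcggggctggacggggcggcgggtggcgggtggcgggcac
Top2a, chr11:99024190-99024339, minus strand: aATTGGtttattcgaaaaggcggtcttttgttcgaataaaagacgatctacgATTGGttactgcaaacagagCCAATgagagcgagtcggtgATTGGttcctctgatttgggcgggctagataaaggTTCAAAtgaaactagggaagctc
Cdk1, chr10:69352913-69353062, minus strand: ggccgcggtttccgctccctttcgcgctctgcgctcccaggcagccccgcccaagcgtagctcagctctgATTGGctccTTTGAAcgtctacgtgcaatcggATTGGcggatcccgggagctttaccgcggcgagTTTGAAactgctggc
Cdc20, chr4:118437344-118437493, minus strand: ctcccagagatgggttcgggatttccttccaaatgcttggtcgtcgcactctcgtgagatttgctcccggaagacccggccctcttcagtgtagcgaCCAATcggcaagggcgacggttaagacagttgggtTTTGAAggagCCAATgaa

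Counted from the promoter table's start, the nearest TTTGAA match upstream lay 98 bases before it in Mki67, 23 in Top2a (opposite strand), 15 in Cdk1 and 18 in Cdc20. The outermost annotated end of the gene lies 71 bases upstream of that start in Mki67 and 10 in Top2a, so those printed stretches reach into the annotated gene, and at the same base in Cdk1 and Cdc20. Among members with a window, TTTGAA occurred in 11 of the 14 that were at least 2-fold higher on empty vector 1 and in 11 of the other 15 with a probe set. CCAAT likewise occurred in 11 of 14 and 11 of 15. TTTAAA was in 2 of 14 and 5 of 15. These counts were not tested, and a missing match says only that those letters are not in the window.

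The target gene and the cell type were checked on the same arrays. Retsat, the gene of retinol saturase, read 416, 496 and 69.5 on its brighter probe set (in the order empty vector 1, empty vector 2, RetSat shRNA, kept in every list of 3 signals here), so 15.2% of the mean empty-vector signal was left. All 10 fibroblast markers were bright, between 811 and 19516 on any array, with summed signals of 86084, 86947 and 88135. Markers of epithelial, immune and endothelial cells (11 of 12 on the array) reached at most 142, with summed signals of at most 217 for any of the 3 types on any array. The control arrays were not alike. Over the tested genes the SD of the log2 difference was 0.739 between the 2 empty-vector arrays and 0.336 between empty vector 2 and RetSat shRNA, and over the 34 mitotic genes it was 1.70 and 0.532. Empty vector 1 thus stands apart from an array of its own group, and each result below is given against each array. Signals are deposited intensities, which compare arrays for 1 probe set and not 1 gene with another. Differences are in log2(signal + 10.2).

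The clearest pattern was a split of the mitotic genes on empty vector 1. Of the 34 members, 16 were at least 2-fold higher on empty vector 1 than on both other arrays, where 7.92% of all tested genes were, and 0 were at least 2-fold lower, where 1.86% of all tested genes were. The remaining 18 lay within 2-fold of at least 1 of the other arrays. Empty vector 1 was set against the others because it stands apart, so these values are a description with no test. Relative to empty vector 2 the members' median log2 difference was 0.74, against -0.14 over all tested genes, and relative to RetSat shRNA it was 0.77, against -0.14. The first became 0.32 with the filter at the 75th percentile and 0.44 with the dimmest passing probe set. These 2 differences share empty vector 1. Of the members inside the 2-fold rule, those nearest to its limit were Prc1, with 1.54 as the smaller of its 2 differences, and Nusap1, with 1.55. Bub1b, with 0.92, was the member just outside it. After Bub1b the next member was Aurka, with 0.37.

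**Figure D1:**
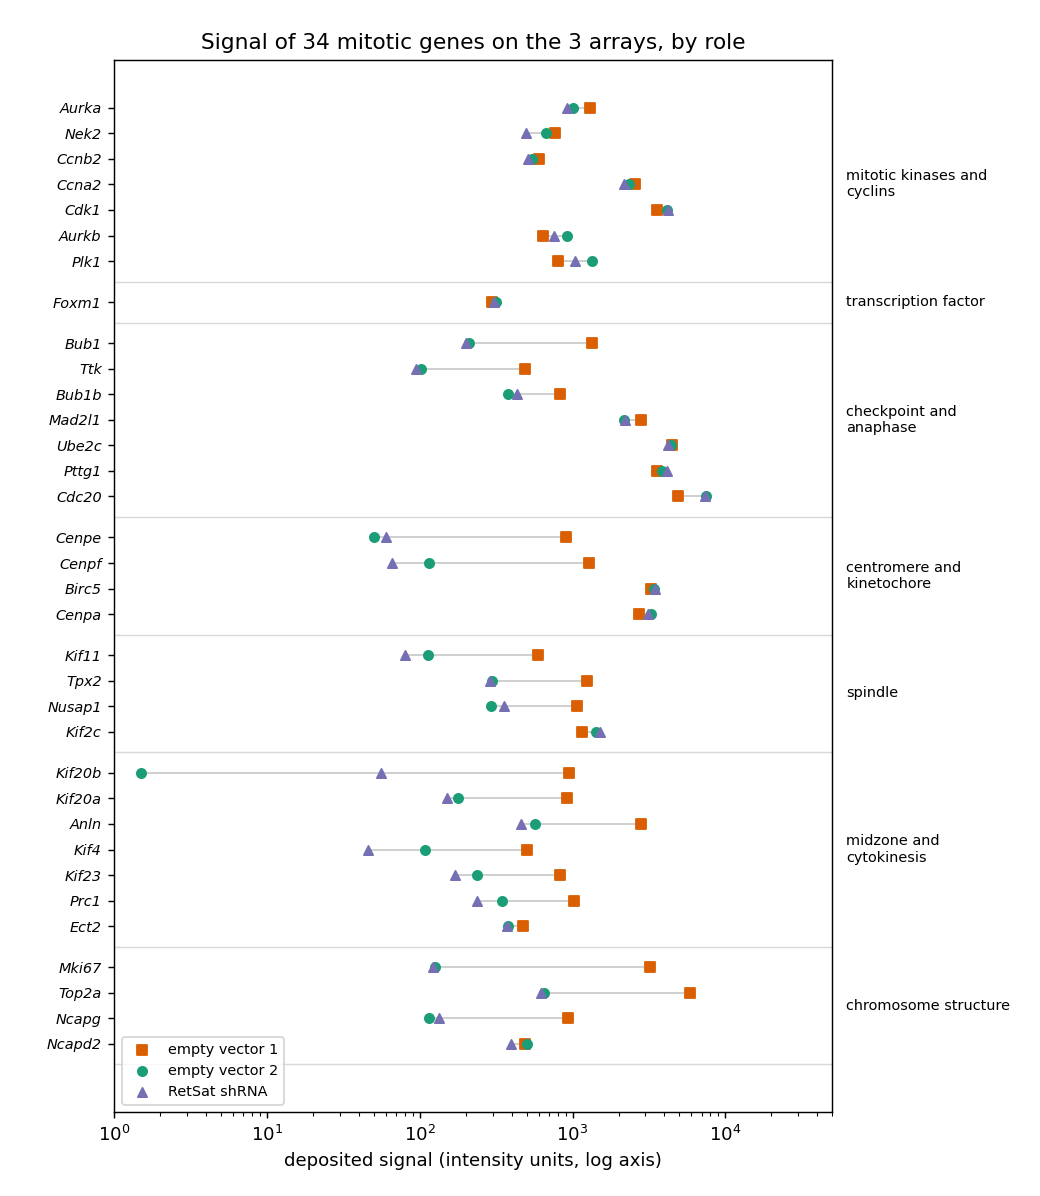
Deposited signal (horizontal log axis, intensity units) of the 34 mitotic genes on empty vector 1 (squares), empty vector 2 (circles) and RetSat shRNA (triangles), 1 array each, grouped by role; grey lines join the lowest and the highest array. Empty vector 1 lies far to the right for 16 genes, mainly spindle, midzone and chromosome genes. The 3 arrays lie within 2-fold for the group of kinases and cyclins, which leaves out the checkpoint kinases Bub1 and Ttk.

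On their brightest probe sets, the genes grouped here as mitotic kinases and cyclins lay within 2-fold over the 3 arrays. The kinases Bub1 and Ttk are grouped with the checkpoint genes and are described there. None of the 7 measured reached the 2-fold rule in either direction. Cdk1, the kinase that starts mitosis, read 3585 on empty vector 1, 4165 on empty vector 2 and 4210.1 on RetSat shRNA. Its partner Ccna2, cyclin A2, read 2572, 2337 and 2172, and Ccnb2, cyclin B2, read 608, 541 and 512. Cdk1 was thus lowest on empty vector 1 while both cyclins were highest there, each by less than 1.5-fold. Aurka, the Aurora kinase of spindle poles, read 1297, 999.8 and 918. Aurkb, the Aurora kinase of the chromosomal passenger complex, read 638, 918 and 756, and Plk1, the Polo kinase of mitotic entry and spindle assembly, read 799, 1339 and 1036. Both Aurkb and Plk1 were lower on empty vector 1 than on the other arrays, by log2 differences of -0.52 and -0.74 from empty vector 2. Nek2, a kinase that separates centrosomes, read 769.8, 673 and 499 on its brightest probe set. The other 2 passing probe sets of Nek2 read 126.6, 247.5 and 153.5 and 55.4, 69.3 and 162.5. Both were thus lower on empty vector 1 than on empty vector 2. Foxm1, the transcription factor that activates many genes of the list, read 299, 316 and 305, on its brightest probe set, at most 0.08 apart on the log2 scale. The other 2 passing probe sets of Foxm1 differed more, at 220, 342 and 229.6 and at 228, 259 and 185, and were lower on RetSat shRNA than on empty vector 2 by differences of -0.56 and -0.46.

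Among checkpoint and anaphase genes, the checkpoint kinases Bub1 and Ttk passed the 2-fold rule and the others did not. Bub1, a kinase that marks centromeres and recruits checkpoint proteins, read 1343 on empty vector 1, 210.3 on empty vector 2 and 201 on RetSat shRNA. Ttk, the MPS1 kinase at the head of the spindle checkpoint, read 489.6, 103 and 93.8. Bub1b, which encodes the checkpoint protein BUBR1, read 828, 378 and 434. All 3 were highest on empty vector 1, with log2 differences from empty vector 2 of 2.62, 2.15 and 1.11. Mad2l1, the checkpoint protein that holds CDC20 inactive, read 2791, 2188 and 2211. Cdc20, the activator of the anaphase-promoting complex, read 4920.1, 7490.3 and 7421, and was the 1 member at least 1.5-fold lower on empty vector 1 than on both others. Ube2c, the ubiquitin-conjugating enzyme of that complex, read 4501, 4411 and 4236, and Pttg1, securin, read 3554, 3853 and 4145. These last 4 genes, all bright, stayed within 2-fold over the arrays.

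Centromere and kinetochore genes fell into 2 pairs. Cenpe, a large kinesin that carries chromosomes to the metaphase plate, read 910 on empty vector 1, 50.3 on empty vector 2 and 60.1 on RetSat shRNA. Cenpf, a large coiled-coil protein of the outer kinetochore, read 1280.4, 114 and 66. Both lay over 3 log2 units above each of the other arrays. Cenpa, the histone H3 variant that marks centromeres, read 2716, 3243 and 3101, and Birc5, the survivin subunit of the passenger complex, read 3268, 3425 and 3476. Neither reached a 1.5-fold difference between any arrays.

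Spindle genes were mostly higher on empty vector 1. Kif11, the motor that pushes spindle poles apart, read 589.9, 113 and 80.5. Tpx2, which activates Aurora A and nucleates spindle microtubules, read 1235, 299 and 289, and Nusap1, a microtubule-bundling protein, read 1072, 290.4 and 358. Their log2 differences from empty vector 2 were 2.29, 2.01 and 1.85. Kif2c, a microtubule-depolymerising kinesin that corrects faulty attachments, read 1159, 1417 and 1516 on its brightest probe set and so went the other way. Other probe sets of Kif2c did not, as described further on.

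Midzone and cytokinesis genes held the most members past the 2-fold rule, 6 of 7. Kif20b, a kinesin of late cytokinesis, read 945 on empty vector 1, 1.5 on empty vector 2 and 55.8 on RetSat shRNA. Its value on empty vector 2 lies at the bottom of the array's range, so its difference of 6.35 depends on the offset. Kif20a, which carries the passenger complex to the midzone, read 916, 177 and 151, and Kif23, the motor of the centralspindlin complex, read 829.8, 236 and 169. Kif4, a chromosome-bound kinesin of the midzone, read 507, 107 and 45.9. Prc1, which crosslinks midzone microtubules and recruits Kif4, read 1027, 346 and 237. The scaffold protein of the cleavage furrow, anillin (Anln), read 2815, 569 and 462. Ect2, the exchange factor that activates RhoA for furrowing, was the exception at 472, 377 and 372, with a log2 difference of 0.32 from empty vector 2.

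Of 4 genes of chromosome structure, 3 passed the 2-fold rule. Mki67, the Ki-67 protein that coats mitotic chromosomes, read 3234 on empty vector 1, 125 on empty vector 2 and 122 on RetSat shRNA, with differences of 4.58 and 4.62. Top2a, the topoisomerase that untangles sister DNA, read 5904, 655 and 624. Ncapg, a subunit of condensin I, read 927, 114 and 133. All 3 were over 6-fold higher on empty vector 1 than on each other array. Ncapd2, another subunit of condensin I, read 487, 502 and 395, a difference of -0.04 between the empty-vector arrays where Ncapg gave 2.91.

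The members that differed also lay in longer genes, a feature that neither the list nor the 2-fold rule used. The annotated span of a gene, from its first to its last base in RefSeq GRCm38.p6 with introns, had a median of 34.8 kb (8.65 to 101 kb) for the 16 members and 11.03 kb (2.97 to 57.0 kb) for the other 18. Over 10825 tested genes with a span the median was 23.0 kb, and 2 of the 16 and 15 of the other 18 lay below it. By quartile of span over all tested genes, from short to long, 1 of 9, 1 of 8, 10 of 12 and 4 of 5 members were at least 2-fold higher on empty vector 1. All tested genes followed the same order at lower shares, 1.44%, 5.73%, 9.94% and 14.5%. Spearman's rho between span and the difference of empty vector 1 from empty vector 2 was 0.70 over the 34 members and 0.25 over all tested genes. Both rho values run over genes of the same 2 arrays, which are no independent replicates, and span is not mRNA length. Kif20a, at 8.65 kb, was a short gene with a large difference, and Ect2, at 57.0 kb, a long one with a small difference. Signal level divided the members as well. At least 2-fold higher on empty vector 1 were 14 of 17 members under 500 on empty vector 2 and 2 of 17 at 500 and over. Over all tested genes these shares were 11.2% and 2.86%. The signal on empty vector 2 also enters the difference, and span and level were not separated.

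**Figure D2:**
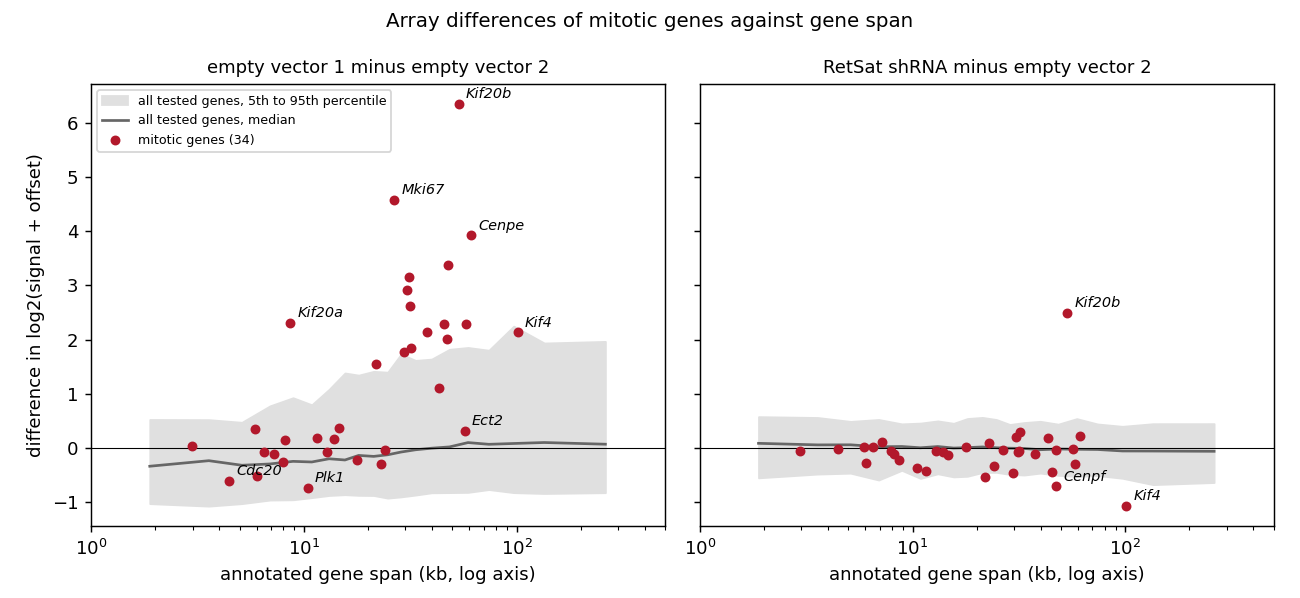
Difference in log2(signal + offset) against annotated gene span (kb, log axis) for empty vector 1 minus empty vector 2 (left) and RetSat shRNA minus empty vector 2 (right); red points are the 34 mitotic genes, the grey line and band the median and the 5th to 95th percentile of all tested genes in 20 bins of span. On the left most mitotic genes of 23.0 kb and more lie above the band and most shorter ones near 0, and on the right nearly all lie inside the band.

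Signs of RNA quality and labelling on the same arrays are given beside this split. The ratio of 3′ to 5′ signal was 1.53, 1.53 and 1.65 for Actb and 0.841, 0.931 and 0.931 for Gapdh. Control probe sets for the transferrin receptor, a gene outside the list, read 232, 37.3 and 42.7 at the 3′ end of the mRNA and 29.6, 13.2 and 11.3 at the 5′ end, whereas the 3′ probe set for pyruvate carboxylase read 321, 594 and 571. The other pyruvate carboxylase probe sets were dimmer and read 100.7, 90.7 and 90 (MB), 61.2, 45.1 and 70.4 (MA) and 47.5, 58.6 and 63.2 (5′ end). Spiked transcripts, each by its 3′ probe set, read 385, 398 and 448.5 (bioB) and 1141, 1432.5 and 1687 (bioC). The brighter ones read 4135, 5703 and 6714 (bioD) and 17685, 19432 and 21935 (cre). The part of these in the result was not tested.

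Probe sets of the same gene did not always give the same answer. Of the 76 probe sets of members, 62 passed the filter, and 26 of these were at least 2-fold higher on empty vector 1 than on both other arrays and 0 lower. The share over all probe sets is not given here. By gene, on the brightest probe set, it was 7.92% higher and 1.86% lower over all tested genes. In 19 genes more than 1 probe set passed, and in 6 of them (Anln, Bub1b, Cenpf, Kif2c, Tpx2 and Ttk) the probe sets fell on both sides of the 2-fold rule. For Kif2c, 2 further probe sets read 946, 434 and 381 and 298, 74.5 and 86.7, both over 2-fold higher on empty vector 1, unlike the brightest. In Top2a the second probe set read 1876, 741 and 677, so its difference from empty vector 2 was 1.33 where the brightest gave 3.15. The 3 probe sets of Kif11 gave 2.15, 2.29 and 2.53, and all 3 of Cdc20 and both of Aurkb were lower on empty vector 1 than on empty vector 2. In Anln, Ttk and Tpx2 the probe sets with small differences were dim, at under 100 on every array. Where on the mRNA each probe set lies was not analysed here.

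**Figure D3:**
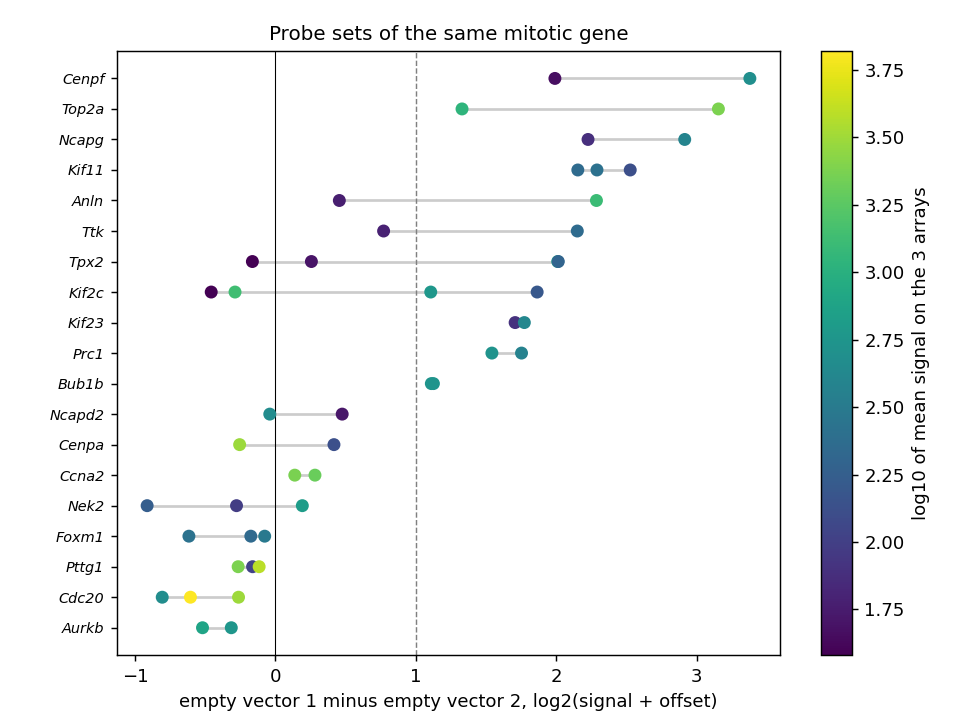
Difference of empty vector 1 from empty vector 2 in log2(signal + offset) for each probe set that passed the filter, in the 19 mitotic genes with more than 1 such probe set; colour gives log10 of the mean signal, grey lines join probe sets of a gene and the dashed line marks 2-fold. Probe sets of Kif11, Kif23 and Prc1 lie together, whereas those of Kif2c, Tpx2, Anln and Top2a lie up to 2.32 apart.

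Further mitotic genes also held members far higher on empty vector 1. Of 92 further symbols listed for mitosis, 85 were tested, and 25 of these (29.4%) were at least 2-fold higher on empty vector 1 than on both other arrays and 0 lower, where 7.92% and 1.86% of all tested genes were. Their median difference from empty vector 2 was 0.32, against -0.14 over all tested genes. By role the counts of higher genes, none of them tested against that background, were 7 of 17 spindle motors and microtubule proteins, 6 of 17 genes of the checkpoint and anaphase, 5 of 24 kinetochore and centromere genes, 3 of 12 genes of mitotic entry, 2 of 6 cytokinesis genes and 2 of 9 genes of chromosome structure and transcription. The furthest were the microtubule polymerase Ckap5 (1019 on empty vector 1, 110.3 on empty vector 2 and 88.3 on RetSat shRNA), the checkpoint protein Kntc1 (741, 75.9 and 81.1), the spindle pole protein Aspm (1048, 126 and 107) and the spindle protein Dlgap5 (285, 34.1 and 29.5). Psrc1, a spindle protein, lay furthest on the lower side (515, 957 and 1114). Of 43 replication genes tested, whose mRNAs peak earlier in the cycle, 6 (14.0%) were at least 2-fold higher and 0 lower, beside the same 7.92% and 1.86%, with a median of 0.10. They were led by the clamp loader subunit Rfc1 (794.6, 143 and 138) and the polymerase subunit Pola1 (352, 60.5 and 59.3). Whether the share differs between mitotic and replication genes was not tested.

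The comparison of RetSat shRNA with the empty vector gave no call among the mitotic genes. In limma's moderated test over all tested genes 0 of 34 members passed an adjusted p of 0.05, as did 0% of all tested genes, with 2 members at an unadjusted p under 0.05 among 108 genes. These were Kif4 (log2 difference -2.14, SE 0.759, limma unadjusted p = 0.0175, adjusted p = 0.99994) and Cenpf (-2.39, SE 1.03, limma unadjusted p = 0.0416, adjusted p = 0.99994), each with its lowest signal on the RetSat shRNA array. A robust variance prior in limma also gave 0 members, with 8 at an unadjusted p under 0.05 among 286 of the 10843 genes. The members at that p, with either prior, were all among the 16 that were at least 2-fold higher on empty vector 1. RetSat shRNA is set here against the mean of both empty-vector arrays, so empty vector 1 enters these differences. From empty vector 2 alone the difference was -1.07 for Kif4 and -0.70 for Cenpf. The spread in this fit is that of the empty-vector pair, which differs widely for these genes, and the single RetSat shRNA array is taken to vary as that pair does. A p that misses the threshold here does not show that the genes were alike.

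Taken array by array, RetSat shRNA lay closer to empty vector 2 than to empty vector 1 in these genes. Relative to empty vector 2 the members' median log2 difference was -0.06, against 0.00 over all tested genes, and relative to empty vector 1 it was -0.77, against 0.14. Both comparisons share the RetSat shRNA array. The value of -0.77 ran down to -0.34 with the filter at the 75th percentile, -0.35 with the mean of a gene's probe sets and -0.43 with its dimmest passing one. Members lower on RetSat shRNA than on empty vector 2 numbered 24 of 34, where 50% of all tested genes were lower. With each array centred on its own median, the members' median from empty vector 2 became 0.0036, so the direction of this small shift depends on the scaling.

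Lower than on both empty-vector arrays, by any amount, were 19 of 34 members, against 25.4% of all tested genes, and 4 members (Birc5, Cdk1, Kif2c and Pttg1) were higher than both, against 34.4%. For Kif2c this held on its brightest probe set alone, and none of its other passing probe sets was highest on RetSat shRNA. Of the 16 members that were high on empty vector 1, 12 were among the 19. Empty vector 1 read highest for 24 of the 34 members and for 3705 of the 10843 tested genes. For those members, being lower than both turns on empty vector 2 alone, and being higher than both is not possible. The shares over all tested genes are thus no like measure for these counts. With empty vector 1 left out the count was 24, where 50% of all tested genes were lower than on empty vector 2. With empty vector 2 left out it was 25, and with the arrays centred 13. The shares over all tested genes under these last settings are not given here, and 25.4% does not apply to them. By size, 1 member (Kif4) was at least 2-fold lower than both, against 0.498% of all tested genes, a call lost with the offset at the median, with the filter at the 75th percentile or with the arrays centred, and 0 were at least 2-fold higher, against 0.0922%. Kif4 has 1 probe set, and its RetSat shRNA signal of 45.9 was near the array's median of 35.7.

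Against empty vector 2, 2 members were at least 1.5-fold lower on RetSat shRNA, Kif4 (107 to 45.9, difference -1.07) and Cenpf (114 to 66, -0.70), where 3.99% of all tested genes were. A second probe set of Cenpf moved the opposite way, from 13.8 to 40.4. Smaller differences were seen for Prc1 (346 to 237, -0.53), Kif23 (236 to 169, -0.46), Kif11 (113 to 80.5, -0.44) and Nek2 (673 to 499, -0.42). Both passing probe sets of Prc1 and both of Kif23 were lower there. In Kif11 the dimmest of 3 was higher, at 44.4 and 49. In Nek2 one of 3 was higher, at 69.3 and 162.5. By role, 6 of 7 midzone and cytokinesis genes were lower than on both empty-vector arrays, 4 of 7 kinases and cyclins, 3 of 7 checkpoint and anaphase genes, 3 of 4 chromosome genes, 2 of 4 spindle genes and 1 of 4 centromere genes, where 25.4% of all tested genes were. With so few genes a role, nothing is read from these counts.

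At least 1.5-fold above empty vector 2 on RetSat shRNA was 1 member, Kif20b (1.5 to 55.8, difference 2.50), where 3.36% of all tested genes were. It rests on a signal at the floor of empty vector 2, and 3 further probe sets of Kif20b were under 25 on every array. Next were Nusap1 (290.4 to 358, 0.29), Cenpe (50.3 to 60.1, 0.22), Ncapg (114 to 133, 0.21) and Bub1b (378 to 434, 0.19), and a second probe set of Ncapg read 33.3 and 1.2 and one of Bub1b 406 and 331, so both went the opposite way. The proliferation marker Mki67 differed by -0.04, Top2a by -0.07, Cdk1 by 0.02 and Cdc20 by -0.01. With 1 array on each side there is no error for these values. In 9 of the 19 genes with more than 1 passing probe set, the sign of the difference from empty vector 2 depended on the probe set. Over the members' passing probe sets 42 were lower and 20 higher on RetSat shRNA. That count holds several probe sets of the same gene and has no share over all probe sets beside it, so nothing is read from it.

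**Figure D4:**
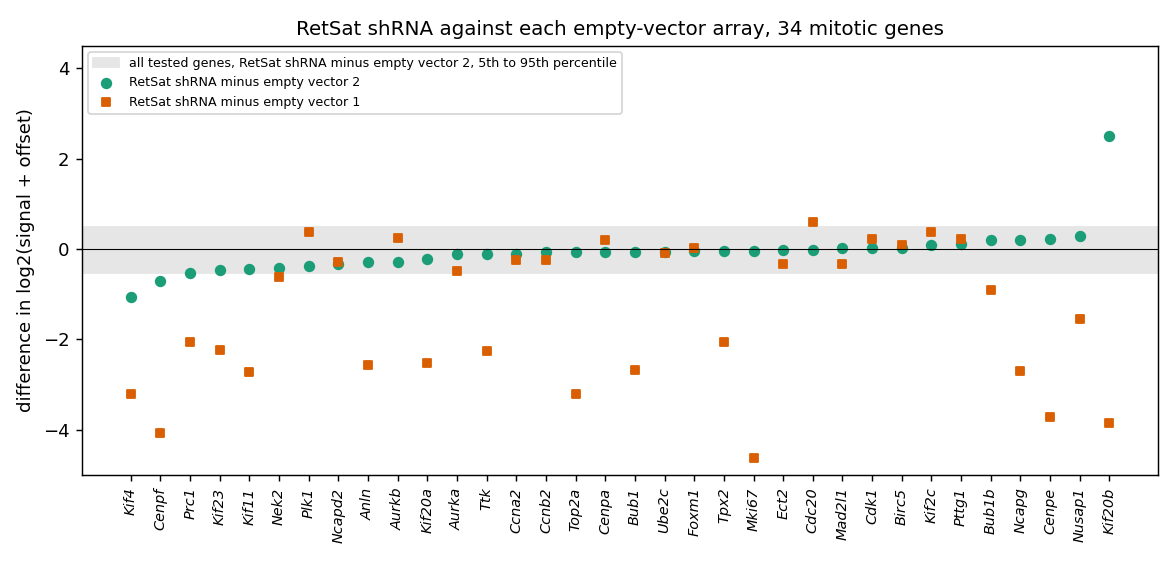
RetSat shRNA minus empty vector 2 (circles) and minus empty vector 1 (squares) in log2(signal + offset) for the 34 mitotic genes, ordered by the first; 1 array each, with the 5th to 95th percentile of RetSat shRNA minus empty vector 2 over all tested genes in grey. All circles but those of Kif4, Cenpf, Prc1 and Kif20b lie inside the band, whereas the squares of 16 genes lie at or below -1.55.

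The further mitotic genes gave a similar picture. Of the 85 tested, 35 (41.2%) had their lowest signal on RetSat shRNA and 12 their highest, where 25.4% and 34.4% of all tested genes did, with a median of -0.07 from empty vector 2, and 0 passed limma (0 at an unadjusted p under 0.05, and 0 called and 6 at that p with the robust prior, where 286 of all tested genes were). The furthest on the lower side were the kinetochore proteins Nuf2 (521, 286 and 201) and Ndc80 (448, 86.3 and 61.4), the kinase Mastl (201, 86.7 and 61.3) and the MuvB subunit Lin54 (529, 358 and 270.2). On the higher side Gtse1, a microtubule-associated protein, read 237, 345 and 439. Of the 43 replication genes, 20 (46.5%) were lower than on both empty-vector arrays and 3 higher, beside the same 25.4% and 34.4%, with a median of -0.16 from empty vector 2, and 0 passed limma (0 at an unadjusted p under 0.05, and 0 and 2 with the robust prior). Mcm4, a subunit of the replicative helicase, led them (2158, 1811 and 1338). Empty vector 1 read highest for 51 of the 85 and 24 of the 43, where it did for 3705 of the 10843 tested genes. For those genes a lowest signal on RetSat shRNA turns on empty vector 2 alone, and a highest one is not possible. Whether the medians of these lists keep their sign with the arrays centred, as the members' median did not, is not given here.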

How the data were processed

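The authors deposited linear intensities, 1 per probe set, for 45101 probe sets on 3 arrays. Scanner, software and summary method were not given in the sources used here. The 2% trimmed mean was 250.002 on each array, so the authors' deposited intensities had been scaled to a common level. The small number of arrays limits the precision, and no detection calls were used.

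Probe sets with exactly 1 gene symbol (34945) in the platform annotation were kept, and symbols were looked up by gene ID in RefSeq GRCm38.p6, which changed 0. A gene was represented by its brightest probe set by mean log2(signal + 10.2), the offset being the 25th percentile of all values, and tested when that mean reached the median over all probe sets. RetSat shRNA was compared with the empty vector in limma 3.58.1 (R 4.3.3), lmFit and eBayes over 3 arrays with 1 residual degree of freedom, two-sided, with Benjamini-Hochberg adjustment. Nothing in the labels says that the arrays came from separate cultures, so a p-value reflects array spread alone, possibly technical. Every member may be named. Of the other lists, up to 4 genes per direction and contrast, ranked by the smaller of 2 differences, may be. The members, lists and tests were chosen with earlier results of these data known. Alternatives changed the offset, filter, probe set, normalization, variance prior and fold, and left out arrays.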

Additional observations from a re-analysis of the deposited data

How the results depend on the processing

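The count of 16 members at least 2-fold higher on empty vector 1 stayed between 11 (filter at the 75th percentile, 29 members tested) and 17 under its 11 alternatives. It was 13 with the mean or the dimmest passing probe set, 16 without empty vector 2 and 17 without RetSat shRNA. The count on the lower side was 0, and 1 at 1.5-fold. The median difference between the empty-vector arrays ran from 0.32 (filter at the 75th percentile) to 0.77 (quantile normalization), and that of RetSat shRNA from empty vector 1 from -0.78 (offset at the 5th percentile) to -0.34. Members whose RetSat shRNA signal lay at least 2-fold from each empty-vector signal numbered 1 (Kif4), but 0 with the offset at the median, with the filter at the 75th percentile or with the arrays centred, 3 with the dimmest passing probe set, 2 at 1.5-fold, and 2 without empty vector 1 to 16 without empty vector 2. The members' median difference of RetSat shRNA from empty vector 2 was -0.06 and became 0.0036 with the arrays centred. Genes called by limma numbered 0, but 1 with the arrays centred and 7 with a robust variance prior, and 0 of them were members. The cause of these changes was not tested. The count of members with their lowest signal on RetSat shRNA, with alternatives added after seeing the data, ran from 13 to 25. Except for leaving out empty vector 1, these alternatives have no share over all tested genes beside them. No paired analysis was possible with 1 RetSat shRNA array, and the labels do not say what the number 2 in its title stands for. Leaving out an empty-vector array leaves no residual degree of freedom for a test.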
